A study of Mus musculus with 30 samples.

Results

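Molecular chaperones keep other proteins folded, and 70 genes of their heat shock and J-domain families were followed here through cold exposure of mouse white and brown fat. They were taken from the 21652 genes of the deposited tables by symbol. Every symbol starting with Dnaj was taken, as was every symbol starting with Hsp followed by a, b, d, e, h or 90, and Hsf1, Hsf2 and Bag3 were added. The endoplasmic reticulum genes Hspa5, Hsp90b1, Dnajb9, Dnajb11 and Dnajc3, the binding-protein genes Hspbp1 and Hspbap1, and pseudogene symbols were left out. The 70 genes comprised 13 of the HSP70 and HSP110 family, 2 of HSP90, 3 chaperonins, 7 small heat shock proteins, 4 class A, 11 class B and 27 class C J-domain proteins, and the 3 added regulators. The name of the set, cytosolic chaperones, holds only in part. The symbol rule also takes 8 genes of mitochondrial proteins (Hspa9, Hspd1, Hspe1, Dnaja3, Dnajc11, Dnajc15, Dnajc19 and Dnajc30) and 7 whose products sit in the endoplasmic reticulum or its membrane (Dnajc1, Dnajc10, Dnajc16, Dnajc25, Dnajb12, Dnajb14 and Hspa13), which are described as such. These 2 lists are not complete, since Dnajc14 and Dnajc18 are also proteins of the endoplasmic reticulum membrane and Dnajc4 and Dnajc28 are annotated as mitochondrial. After removal of genes with low counts, 63 of the 70 were tested in white fat (of 13689 genes), 62 in brown fat (of 13090) and 64 across both (of 14089). Dnajb8, Dnajc5b, Dnajc5g, Dnajc6, Hspb3 and Hspb9 were too low to be tested in any fit, and Dnajb7 and Hspb2 were tested in white but not in brown fat alone.

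As background, HSP70 proteins bind unfolded stretches of other proteins in a cycle driven by ATP. J-domain proteins bring clients to HSP70 and speed up the hydrolysis step, and HSP110 proteins such as Hspa4, Hspa4l and Hsph1 release the nucleotide again. HSP90 takes over partly folded clients such as kinases and steroid receptors, small heat shock proteins hold unfolded proteins in solution, and HSP60 with HSP10 folds imported proteins inside mitochondria. Hsf1 is the transcription factor that switches many of these genes on after heat and other protein stress, through inverted repeats called heat shock elements. In brown fat, and in white fat that takes on brown features in the cold, mitochondria burn fuel for heat through Ucp1, and their proteins are imported and folded by the mitochondrial chaperones.

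PolyA RNA was sequenced from 2 depots of C57BL/6J males 7 to 8 weeks old, the inguinal white fat pad under the skin (iWAT) and brown fat (BAT). Mice lived 5 to a cage with 12 h of light and 12 h of dark. Controls are labelled 22 °C, although their room is described as 24 ± 2 °C, and the other groups spent 6 h or 24 h at 6 °C. Each of the 6 groups had 5 libraries, with 25345889 to 40986043 assigned counts each. Nothing in the labels says that replicates are separate animals, so p-values measure the spread between these samples. Adipocyte markers (Adipoq, Plin1 and 8 others) were abundant in every library, and summed to 24384 to 55094 CPM (counts scaled to library size with TMM factors). Summed brown adipocyte markers were 13375 to 16782 CPM in BAT and 182 to 1338 CPM in iWAT at 22 °C. Skeletal muscle markers stood apart in 1 iWAT library at 22 °C, replicate 2, with 3748 CPM against 2.58 to 7.42 in the other 4, and summed to 269.5 to 8987 CPM in BAT at 22 °C. In bulk tissue, fewer cells of a type and less RNA per cell cannot be told apart. Values of single libraries are given below in the order of replicates 1 to 5, log2 fold changes carry their approximate standard error, and adjusted p-values come from edgeR's quasi-likelihood test over all genes tested, with genes under 0.05 called.

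Promoter windows from 250 bases before to 50 bases after the gene start were available for 54 of the 70 genes (RefSeq, GRCm38.p6). They were searched on both strands for heat shock elements of 3 alternating units, GAA NN TTC NN GAA or its reverse complement, and of 2 units, GAA NN TTC or TTC NN GAA, which also lie inside the longer word. The 3-unit word occurred in 4 of the 54 genes (7.41%), Hspe1, Hspd1, Dnajb6 and Hsph1, and in 0.662% of all 27025 genes with a window. The 2-unit word occurred in 17 of 54 (31.5%), against 17.0% of all genes. Stretches of 5 promoters are shown because their genes recur in the results that follow, and capitals mark the heat shock element words.
Hspe1: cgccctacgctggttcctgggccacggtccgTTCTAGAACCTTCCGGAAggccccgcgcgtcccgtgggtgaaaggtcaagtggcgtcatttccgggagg
Dnajb6: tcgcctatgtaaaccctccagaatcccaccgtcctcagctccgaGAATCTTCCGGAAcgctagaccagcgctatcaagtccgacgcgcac
Hsph1: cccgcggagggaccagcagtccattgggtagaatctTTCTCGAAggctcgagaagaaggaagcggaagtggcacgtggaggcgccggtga
Dnaja4: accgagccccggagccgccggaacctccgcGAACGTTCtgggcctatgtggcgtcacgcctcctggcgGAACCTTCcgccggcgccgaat
Hspb1: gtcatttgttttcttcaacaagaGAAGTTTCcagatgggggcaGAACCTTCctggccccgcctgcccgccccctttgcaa
The Hspe1 stretch lies at chr1:55088028-55088127 on the plus strand, and its 18 capitals, 4 alternating units in a row, begin at position -89 from the gene start. The same letters lie in the window of Hspd1, because the 2 genes lie head to head with starts 216 bases apart and share 285 bases of their windows. The Dnajb6 stretch lies at chr5:29735808-29735897 on the plus strand, with a 3-unit word from -46. The Hsph1 stretch, chr5:149636316-149636405 on the minus strand, holds a 2-unit word from -54, and its 3-unit word lies after the gene start and is not shown. The Dnaja4 stretch, chr9:54699439-54699528 on the plus strand, holds 2-unit words from -90 and -52, and the Hspb1 stretch, chr5:135887779-135887858 on the plus strand, from -117 and -97. Besides the genes above, windows of Hspa1a, Hspa1b, Dnaja1, Dnajb4, Hspb8, Bag3, Hspb6, Hspb3, Dnajc10, Dnajc27 and Dnajc5g held a 2-unit word. Those of Hspa4l, Dnajb1 and Dnaja3 were among the windows with neither word. The 16 genes without a window could not be searched, among them Hsp90aa1, Hsp90ab1, Hspa8, Hspa9, Dnajc11 and Hsf1. The words found are matches of letters and not measured binding sites.

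Per length, in the authors' FPKM (fragments scaled by gene length and library size), 4 genes led in every group. They were Hsp90ab1, the constitutive cytosolic HSP90, Hspa8, the constitutive HSP70, Hspa9, the mitochondrial HSP70, and Hspd1, the mitochondrial HSP60. In iWAT at 22 °C the order was Hsp90ab1 at 214 ± 21.5, Hspd1 at 190.1 ± 31.0, Hspa8 at 168 ± 37.2 and Hspa9 at 165 ± 27.1 FPKM (mean ± SD, n = 5), each within 1 SD of its neighbour. In iWAT at 24 h it was Hspa8 at 321 ± 43.6, Hspa9 at 295 ± 8.13, Hspd1 at 281 ± 19.8 and Hsp90ab1 at 232 ± 18.8 FPKM. In BAT at 22 °C the mitochondrial pair was on top, with 391 ± 15.8 FPKM for Hspa9 and 382 ± 33.2 for Hspd1, above 329.5 ± 38.9 for Hsp90ab1 and 305 ± 42.3 for Hspa8. The order between genes depends on the authors' gene lengths. By CPM, without length, it was Hspa9 at 1959, Hspa8 at 1519, Hspd1 at 1173 and Hsp90ab1 at 1146 in BAT at 22 °C. After 6 h of cold the order in BAT had turned, with Hsp90ab1 at 626 ± 111 and Hspa8 at 589 ± 66.1 above Hspd1 at 489 ± 66.8 and Hspa9 at 436 ± 47.8. Hsp90aa1, the inducible HSP90, stood at 101 ± 24.9 FPKM in BAT at 22 °C and 308 ± 36.7 after 6 h. Its ratio to Hsp90ab1 within a library in BAT was 0.235 to 0.340 at 22 °C, 0.382 to 0.628 at 6 h and 0.290 to 0.381 at 24 h, so the ratios of the 6 h libraries lay above all those at 22 °C. In iWAT that ratio was 0.343 to 0.451, 0.449 to 0.578 and 0.491 to 0.640, with a slight overlap between 22 °C and 6 h. All 70 genes together took 0.838 ± 0.0751% of assigned counts in BAT at 22 °C, 1.24 ± 0.0662% at 6 h and 0.953 ± 0.0424% at 24 h. In iWAT they took 0.562 ± 0.0576%, 0.629 ± 0.0966% and 0.763 ± 0.0475%.

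Both genes of cytosolic HSP90 and 5 of the 13 genes of the HSP70 and HSP110 family, Hspa4l, Hspa4, Hsph1, Hspa8 and the mitochondrial Hspa9, were higher in BAT after 6 h of cold. Of 62 tested genes, 17 were called higher and 4 lower, where 12.5% of all tested genes were called higher, 10.2% lower and 22.7% in either direction. The median log2 fold change was 0.16 over the 62 genes and -0.01 over all genes. The steepest rise was that of Hspa4l (ENSMUSG00000025757), an HSP110 protein, which measured 56.4, 71.0, 74.6, 68.6 and 59.8 CPM at 22 °C and 191, 231, 232, 231 and 245 CPM after 6 h. All 5 cold libraries lay above every control (log2 1.76 ± 0.11, adjusted p = 1.37e-07). Hsp90aa1 (ENSMUSG00000021270) measured 378, 495, 499, 595 and 325 CPM at 22 °C and 1367, 1295, 1561, 1436 and 1611 CPM in the cold. The lowest cold library thus exceeded the highest control (log2 1.65 ± 0.14, adjusted p = 1.31e-06). Its constitutive partner Hsp90ab1 rose as well, from a range of 1045 to 1337 CPM to a range of 1938 to 2871 CPM without overlap (log2 0.96 ± 0.11, adjusted p = 1.43e-05).

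Among the other HSP70 and HSP110 genes, Hspa8 (ENSMUSG00000015656) measured 1315, 1681, 1611, 1673 and 1315 CPM at 22 °C and 3727, 2712, 2670.2, 3492 and 2763 CPM after 6 h in BAT. The groups did not overlap, and replicates 1 and 4 were the highest of the cold libraries (log2 1.00 ± 0.12, adjusted p = 2.68e-05). Hspa4, the closest relative of Hspa4l, measured 206 to 232 CPM at 22 °C and 257 to 322 CPM after 6 h, without overlap (log2 0.44 ± 0.07, adjusted p = 0.00025). Hsph1, the heat-inducible HSP110 gene, measured 83.2, 106, 167, 218 and 67.3 CPM at 22 °C and 254, 196, 204, 263 and 237 CPM after 6 h. Control replicate 4 lay above cold replicates 2 and 3, so the groups overlapped although the gene was called (log2 0.83 ± 0.25, adjusted p = 0.0236). The inducible HSP70 genes Hspa1a and Hspa1b were not called, with log2 fold changes of -0.36 ± 0.78 and -0.12 ± 0.73 (adjusted p = 0.789 and 0.927). The other 6 of the family were not called either, and Hspa1l (-0.25 ± 0.22), Hspa2 (-0.56 ± 0.21), Hspa12a (-0.20 ± 0.16) and Hspa14 (-0.12 ± 0.08) also had values below 0.

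Of the J-domain genes that feed cytosolic HSP70, Dnaja4 measured 14.6, 10.3, 15.3, 21.0 and 16.1 CPM in BAT at 22 °C and 30.1, 33.8, 33.3, 44.7 and 39.6 CPM after 6 h. Every cold library was above every control (log2 1.21 ± 0.15, adjusted p = 2.59e-05). Dnaja1, another class A protein, rose with overlapping groups (log2 0.59 ± 0.17, adjusted p = 0.0176), while Dnaja2 and the class B genes Dnajb1 and Dnajb4 had log2 fold changes of 0.11 ± 0.07, 0.12 ± 0.28 and 0.13 ± 0.12 and were not called. The Rab-like Dnajc27 (log2 0.60 ± 0.13), Dnajc11 of the mitochondrial membrane (0.53 ± 0.08), and Dnajc25 (0.39 ± 0.09) and Dnajb14 (0.36 ± 0.07) of the endoplasmic reticulum membrane were higher. The chaperonin pair Hspe1 and Hspd1, whose windows share the letters shown above, rose by log2 0.64 ± 0.12 and 0.39 ± 0.07, and Hspa9 by 0.19 ± 0.06, each without overlap. Hspb8, a small heat shock protein that works with Bag3, measured 59.7 to 78.1 CPM at 22 °C and 121 to 165 CPM after 6 h, without overlap (log2 0.89 ± 0.12, adjusted p = 4.52e-05), and Hspb1, known as HSP27, was called with overlapping groups (log2 0.69 ± 0.24, adjusted p = 0.0468). The 4 genes called lower were Hspb6 (-1.67 ± 0.41), Dnajc12 (-1.20 ± 0.22), Dnajc28 (-0.50 ± 0.08) and Dnajc9, a histone chaperone (-0.34 ± 0.11). Dnajc12, whose protein binds aromatic amino acid hydroxylases, was low throughout, at 2.61, 1.90, 3.31, 3.50 and 4.28 CPM at 22 °C and 1.36, 1.34, 1.38, 1.21 and 1.59 CPM after 6 h, without overlap. Dnajc28 measured 50.6 to 57.6 CPM at 22 °C and 36.1 to 44.9 CPM after 6 h, also without overlap. Hsph1 lost its call at 6 h without BAT 22 °C replicates 1 or 2 or BAT 6 h replicate 4 (adjusted p = 0.0515 to 0.0594). Hspb1 lost its call at 6 h without BAT 22 °C replicates 1, 2, 3 or 5 or BAT 6 h replicates 1, 3, 4 or 5 (0.0534 to 0.121). Hspa9 lost its call at 6 h without BAT 22 °C replicates 1 or 4 or BAT 6 h replicates 2, 3 or 5 (0.0635 to 0.0985). Dnajc9 lost its call at 6 h without BAT 22 °C replicates 3 or 5 or BAT 6 h replicate 3 (0.0698 to 0.0952).

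**Figure D1:**
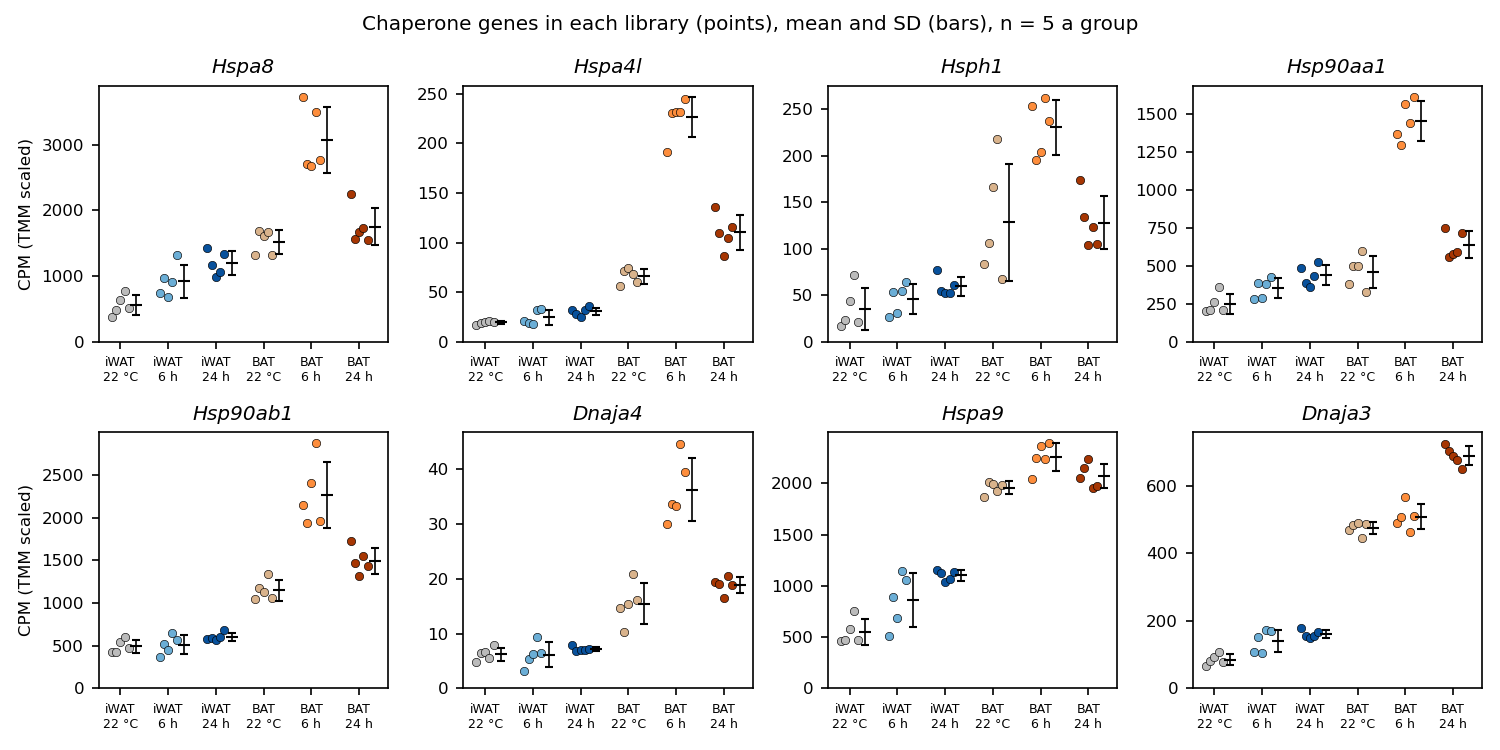
CPM of 8 chaperone genes in each of the 30 libraries (points, coloured by group), with the mean and SD of each group of 5 beside them. In brown fat the 6 h libraries of Hspa4l, Hsp90aa1 and Hspa8 sit above all libraries at 22 °C, and Dnaja3 is highest at 24 h.

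At 24 h in the cold, several of the genes high at 6 h stood lower in BAT. The rise to 6 h and the change from 6 h to 24 h rest on the same 6 h libraries, so they are not independent results. The comparisons with 22 °C likewise share their controls. Against 22 °C, 12 genes were called higher and 3 lower, where 12.8% of all tested genes were called higher, 10.4% lower and 23.1% in all, with a median of 0.06 over the 62 genes. Against 6 h, 15 genes were called lower and 4 higher, where 6.45% of all genes were called lower, 6.6% higher and 13% in all, with a median of -0.13 against 0.01 over all genes. Hspa4l measured 136, 109, 86.6, 104 and 116 CPM at 24 h. All 5 libraries lay between the groups at 22 °C and 6 h, so the gene was both lower than at 6 h (log2 -1.04 ± 0.11, adjusted p = 4.21e-05) and higher than at 22 °C (log2 0.72 ± 0.11, adjusted p = 0.000167). Hsp90aa1 measured 751, 557, 579, 591 and 716 CPM at 24 h. It too was below every 6 h library (log2 -1.19 ± 0.14, adjusted p = 7.42e-05), and it overlapped the controls, of which replicate 4 exceeded 3 of the 24 h libraries (log2 0.46 ± 0.13, adjusted p = 0.0205). Hspa8 fell back to 2245, 1566, 1668, 1732 and 1549 CPM. It was lower than at 6 h (log2 -0.81 ± 0.12, adjusted p = 0.000429) and not called against 22 °C (log2 0.19 ± 0.12, adjusted p = 0.281). Dnaja4 (-0.94 ± 0.14), Hsph1 (-0.85 ± 0.25), Hsp90ab1 (-0.60 ± 0.11), Dnaja1 (-0.52 ± 0.17), Hspe1 (-0.41 ± 0.12) and Hspd1 (-0.33 ± 0.07) were also lower at 24 h than at 6 h, as were Dnajc18, Dnajc27, Hspa13, Dnajb14, Dnajc2 and Dnajb6 (log2 -0.49 to -0.19). The split of 4 higher to 15 lower was 7 to 10 on the authors' FPKM in limma and 6 to 12 with upper-quartile factors.

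Other genes were called higher in BAT at 24 h. Hspb8 (log2 0.55 ± 0.11), Hspa4 (0.32 ± 0.07), Dnajc11 (0.59 ± 0.08), Dnajc25 (0.39 ± 0.09) and Hsp90ab1 (0.36 ± 0.11) were called against 22 °C at 24 h as they were at 6 h. Dnaja3, the class A J-domain partner of Hspa9 in mitochondria, was not called at 6 h (log2 0.08 ± 0.06) and was higher at 24 h, with 470.2, 484, 491, 444 and 487 CPM at 22 °C and 725, 703, 689, 678 and 651 CPM at 24 h. No library at 24 h overlapped the controls (log2 0.52 ± 0.06, adjusted p = 1.72e-05). Hspa14 and Dnajc2 form the HSP70 and J-domain pair that sits on the ribosome. Hspa14 measured 15.6 to 17.9 CPM at 6 h and 22.8 to 27.1 CPM at 24 h, without overlap (log2 0.55 ± 0.08, adjusted p = 0.000327), whereas Dnajc2 was among the genes lower at 24 h (log2 -0.29 ± 0.07, adjusted p = 0.0148). Hspa14 was also called against 22 °C, where it measured 16.1 to 19.9 CPM, without overlap (log2 0.43 ± 0.08, adjusted p = 0.000748). The other rises against 22 °C were those of Dnajc15 of the mitochondrial import motor (log2 0.23 ± 0.08), Hspa12b (0.33 ± 0.09) and Dnajb12 (0.22 ± 0.07), and between 6 h and 24 h Dnajc12 (0.85 ± 0.22) and Dnajc9 (0.42 ± 0.11) rose. Called lower against 22 °C were Dnajb3 (-0.76 ± 0.23), Dnajc28 (-0.41 ± 0.08) and Dnajb6, a suppressor of protein aggregation (-0.22 ± 0.06). Hsp90aa1 and Hsp90ab1 lost their calls against 22 °C without BAT 22 °C replicate 1 or BAT 24 h replicate 1 (adjusted p = 0.052 to 0.057). Dnajc15 lost its call against 22 °C without BAT 22 °C replicates 1, 3, 4 or 5 or BAT 24 h replicates 1, 2, 3 or 5 (0.0511 to 0.118). Dnajb12 lost its call against 22 °C without BAT 22 °C replicates 2, 4 or 5 or BAT 24 h replicates 1, 2 or 4 (0.0548 to 0.0747). Dnajb3 lost its call against 22 °C without BAT 22 °C replicates 1 or 3 or BAT 24 h replicate 2 (0.0535 to 0.0598). Hsph1 lost its call against 6 h without BAT 24 h replicates 3, 4 or 5 or BAT 6 h replicates 4 or 5 (adjusted p = 0.0642 to 0.0748). Dnaja1 lost its call against 6 h without BAT 24 h replicates 2, 3, 4 or 5 or BAT 6 h replicates 1, 2, 3, 4 or 5 (0.0544 to 0.104). Dnajc27 lost its call against 6 h without BAT 24 h replicates 1, 3 or 4 or BAT 6 h replicates 2, 3, 4 or 5 (0.082 to 0.108). Hspe1 lost its call against 6 h without BAT 24 h replicates 2, 3 or 4 or BAT 6 h replicate 4 (0.0609 to 0.0682). Hspa13 lost its call against 6 h without BAT 24 h replicates 1, 3 or 4 or BAT 6 h replicates 2 or 5 (0.0514 to 0.076). Dnajb6 lost its call against 6 h without BAT 24 h replicates 1, 3 or 4 or BAT 6 h replicates 4 or 5 (0.0616 to 0.0843). Dnajc12 lost its call against 6 h without BAT 24 h replicate 4 (0.0511). Without BAT 24 h replicate 4, 12 genes instead of 19 were called against 6 h.

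**Figure D2:**
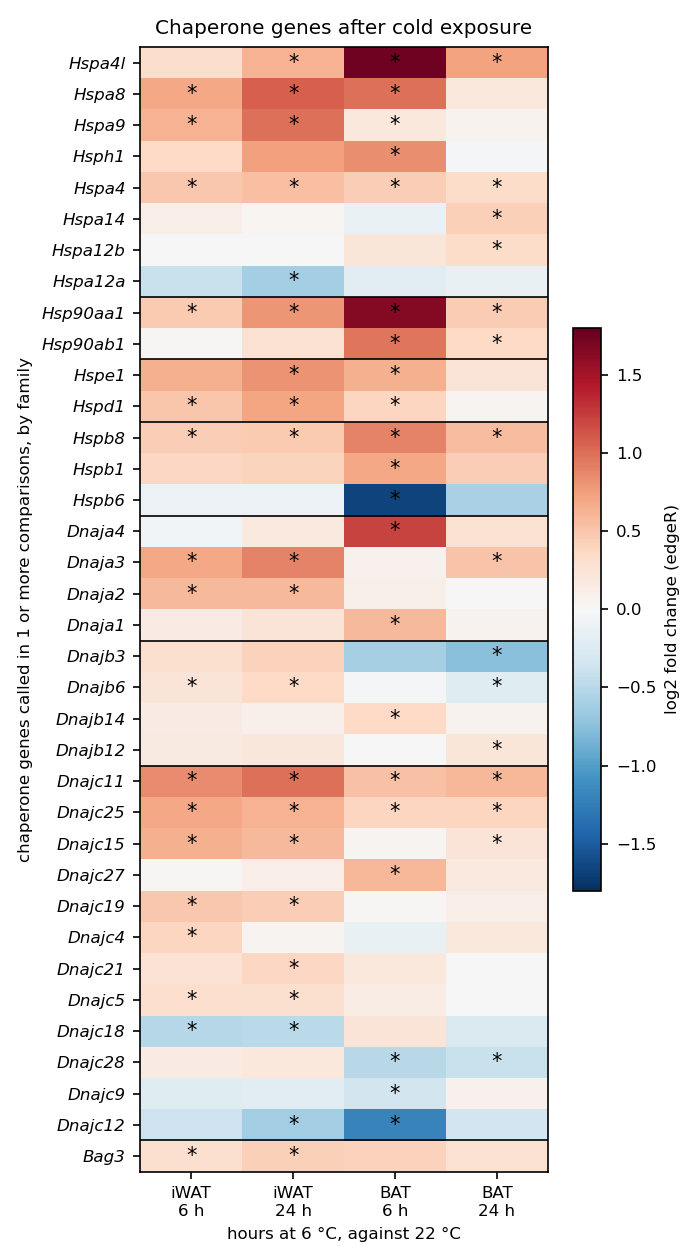
Log2 fold changes of the chaperone genes called in at least 1 of the 4 comparisons of 6 h or 24 h with 22 °C, except Dnajc22, with genes grouped by family and asterisks on called values. Red is higher and blue lower after cold, and the darkest red lies in brown fat at 6 h, at Hspa4l and Hsp90aa1.

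In iWAT, genes of mitochondrial chaperones and part of the cytosolic set were higher after cold. After 6 h, 16 of 63 tested genes were called higher and 1 lower, where 12.9% of all tested genes were called higher, 10.1% lower and 23% in all. After 24 h, 19 were called higher and 3 lower, where 12.8% of all genes were higher, 10.1% lower and 23% in all. Medians were 0.15 at 6 h and 0.15 at 24 h, against -0.03 and -0.04 over all genes. Of the 8 mitochondrial members, 6 were called higher at 6 h (median 0.63) and 7 at 24 h (median 0.76), none lower. In BAT the same 8 gave 4 at 6 h (median 0.13) and 3 at 24 h (median 0.18). Of the 7 members of the endoplasmic reticulum, 1 was called higher in iWAT at each time and 2 in BAT at each time. Outside these lists, Dnajc28 was called lower in BAT at both times (-0.50 ± 0.08 and -0.41 ± 0.08) and in iWAT at neither (0.15 ± 0.16 and 0.18 ± 0.16). A list of 15 genes called heat-inducible here held Hspa1a, Hspa1b, Hspa4l, Hspa8, Hsph1, Hsp90aa1, Hspd1, Hspe1, Hspb1, Hspb8, Dnaja1, Dnaja4, Dnajb1, Dnajb4 and Bag3, although Hspa8 is also expressed constitutively. It had 5 genes higher in iWAT at 6 h (median 0.32) and 7 at 24 h (0.44), against 10 (0.64) and 3 (0.19) in BAT. Hspd1 and Hspe1 belong to this list and to the mitochondrial one, so the counts of these lists share genes.

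Dnajc11 (ENSMUSG00000039768), a J-domain protein of the mitochondrial inner membrane organizing machinery, measured 33.3, 41.3, 48.9, 49.2 and 39.9 CPM in iWAT at 22 °C, 45.3, 82.1, 57.9, 111 and 94.9 CPM at 6 h and 104, 80.0, 77.3, 82.5 and 84.6 CPM at 24 h. Replicate 1 at 6 h lay within the control range, and all libraries at 24 h lay above it (6 h log2 0.85 ± 0.19, adjusted p = 0.00786 and 24 h log2 0.99 ± 0.19, adjusted p = 0.0024). Hspa9, the HSP70 of the mitochondrial matrix, measured 459.5, 475, 576, 754 and 475 CPM at 22 °C, 506, 893, 687, 1144 and 1059 CPM at 6 h and 1155, 1122, 1036, 1063 and 1135 CPM at 24 h. The 6 h libraries were spread from the control level to that of 24 h, and the 24 h libraries lay close together above all controls (6 h log2 0.62 ± 0.19, adjusted p = 0.0272 and 24 h log2 0.99 ± 0.19, adjusted p = 0.00231). Dnaja3 was called at both times (log2 0.69 ± 0.15 and 0.90 ± 0.15), as were Hspd1 (0.49 ± 0.17 and 0.71 ± 0.17), and Dnajc15 (0.63 ± 0.17 and 0.58 ± 0.17) and Dnajc19 (0.48 ± 0.14 and 0.44 ± 0.14), which belong to the import motor. Hspe1 measured 70.0, 75.2, 79.0, 166 and 62.9 CPM at 22 °C, 161, 155, 95.4, 125 and 177 CPM at 6 h and 190.4, 173, 118, 142 and 176 CPM at 24 h. Control replicate 4 lay far above the other 4 controls and within the cold range, and the gene was called at 24 h and not at 6 h (6 h log2 0.63 ± 0.23, adjusted p = 0.0579 and 24 h log2 0.80 ± 0.23, adjusted p = 0.0219). The difference between the times was not called (log2 0.17 ± 0.23).

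Of the cytosolic genes, Hspa8 measured 380.4, 488, 641, 777 and 509 CPM in iWAT at 22 °C, 739.9, 973, 681, 906 and 1317 CPM at 6 h and 1427, 1163, 991, 1069.9 and 1343 CPM at 24 h. Control replicate 4 overlapped the 6 h libraries, and no control reached the 24 h libraries (6 h log2 0.70 ± 0.19, adjusted p = 0.02 and 24 h log2 1.08 ± 0.20, adjusted p = 0.00181). Hsp90aa1 was called at both times (log2 0.48 ± 0.16 and 0.80 ± 0.17) while Hsp90ab1 was not (0.02 ± 0.14 and 0.27 ± 0.14). Dnaja2, a class A partner of Hspa8, measured 102, 114, 116, 132 and 106 CPM at 22 °C and 176, 172, 144, 180.2 and 201 CPM at 6 h. No control reached the cold range, and the rise was that with the smallest adjusted p of the set at 6 h (6 h log2 0.59 ± 0.09, adjusted p = 0.00158 and 24 h log2 0.59 ± 0.09, adjusted p = 0.000806). Hspa4 (0.49 ± 0.10 and 0.54 ± 0.10), Hspb8 (0.44 ± 0.14 and 0.48 ± 0.14), Bag3 (0.28 ± 0.09 and 0.44 ± 0.09), Dnajb6 (0.23 ± 0.08 and 0.36 ± 0.08), Dnajc5, the chaperone of secretory vesicles (0.31 ± 0.09 and 0.29 ± 0.09), and Dnajc25 of the endoplasmic reticulum (0.69 ± 0.13 and 0.62 ± 0.13) were also higher at both times. Dnajc4 was called at 6 h (0.38 ± 0.13), and Hspa4l (0.63 ± 0.16), the ribosome assembly factor Dnajc21 (0.37 ± 0.10) and Dnajc22 at 24 h. Dnajc22 was near 0 in iWAT, at 0 to 0.122 CPM at 22 °C and 0.472 to 1.10 CPM at 24 h, and no fold is given for it. Dnajc18 was lower at both times (-0.51 ± 0.13 and -0.49 ± 0.13), and Dnajc12 (-0.63 ± 0.17) and Hspa12a (-0.61 ± 0.17), a distant HSP70 relative, at 24 h. Between 24 h and 6 h edgeR called 0 members, with 3 at an unadjusted p under 0.05 and 0 called by DESeq2 or limma, where 0.00731% of all genes were called.

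Calls at 6 h in iWAT depended on single libraries and on scaling. The count of 17 became 6 without iWAT 22 °C replicate 1, 7 without replicate 2, 10 without replicate 3, and 10, 11 and 8 without iWAT 6 h replicates 2, 4 and 5. The share of all genes called in these fits is not given here, so a fall shared with other genes cannot be told apart. Hspa8 lost its call at 6 h without iWAT 22 °C replicates 1 or 2 or iWAT 6 h replicate 5 (adjusted p = 0.0535 to 0.0587). Dnajc15 lost its call at 6 h without iWAT 22 °C replicate 1 (0.0516). Hspa9 lost its call at 6 h without iWAT 22 °C replicates 1, 2 or 5 or iWAT 6 h replicates 2, 4 or 5 (0.0508 to 0.0738). Hspd1, Hsp90aa1, Bag3 and Dnajb6 lost their calls at 6 h without iWAT 22 °C replicates 1, 2, 3 or 5 or iWAT 6 h replicates 2, 4 or 5 (0.0558 to 0.117). Dnajc19 lost its call at 6 h without iWAT 22 °C replicates 1, 2 or 3 or iWAT 6 h replicates 1 or 2 (0.0534 to 0.0586). Hspb8 lost its call at 6 h without iWAT 22 °C replicates 1, 2 or 3 or iWAT 6 h replicates 1 or 5 (0.0608 to 0.0724). Dnajc4 lost its call at 6 h without iWAT 22 °C replicates 1, 2 or 3 or iWAT 6 h replicates 1, 2 or 5 (0.0545 to 0.0973). Dnajc5 lost its call at 6 h without iWAT 22 °C replicates 1 or 2 or iWAT 6 h replicates 2, 4 or 5 (0.0575 to 0.0752). Hspe1 and Dnajc15 lost their calls at 24 h without iWAT 22 °C replicates 1, 2 or 5 or iWAT 24 h replicate 1 (adjusted p = 0.0504 to 0.0639). Hspb8 lost its call at 24 h without iWAT 24 h replicate 1 (0.0518). Dnajc19 lost its call at 24 h without iWAT 22 °C replicates 1, 2, 3 or 5 or iWAT 24 h replicates 1, 2 or 5 (0.0538 to 0.0897). Dnajc21 lost its call at 24 h without iWAT 22 °C replicate 1 (0.0503). Dnajc5 lost its call at 24 h without iWAT 22 °C replicates 1, 2 or 5 or iWAT 24 h replicates 1, 3, 4 or 5 (0.0569 to 0.0905). Hspa12a lost its call at 24 h without iWAT 22 °C replicate 1 or iWAT 24 h replicate 1 (0.0518 to 0.0534). Dnajc22 lost its call at 24 h without iWAT 22 °C replicates 1 or 2 or iWAT 24 h replicate 5 (0.0512 to 0.0597). With the authors' FPKM in limma the median over all genes moved to -0.15 at 6 h and -0.12 at 24 h (pseudocount 1), and the split of higher to lower calls among members became 5 to 7 at 6 h and 15 to 6 at 24 h. The median over members then turned to -0.06 at 6 h and -0.01 at 24 h. On that scale the 8 mitochondrial members gave 3 higher at 6 h and 6 at 24 h and none lower, and the heat-inducible list 0 at 6 h and 6 at 24 h. With upper-quartile factors the splits were 9 to 3 and 17 to 4. Markers of other cells differed between the groups as well. Summed brown adipocyte markers in iWAT were 222, 418, 1127, 1338 and 182 CPM at 22 °C, 1159, 2587, 833, 5752 and 6129.6 CPM at 6 h and 4902, 3373, 3208, 4119 and 5330.3 CPM at 24 h, with 9 of 10 detected in every library and Zic1 at 0 counts in 3, 4 and 5 of the 5 libraries. Summed progenitor and fibroblast markers, 10 of 10 detected in every library, were 2629 to 4804, 1713 to 2933 and 1554 to 2428 CPM. At 6 h the libraries with low brown adipocyte markers, replicates 1 and 3, were also the lowest for Hspa9, Hspd1 and Dnajc11. The part of either marker list in these results was not tested. With the skeletal muscle list as a covariate, chosen after seeing the data, 7 members were called at 6 h and 20 at 24 h.

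**Figure D3:**
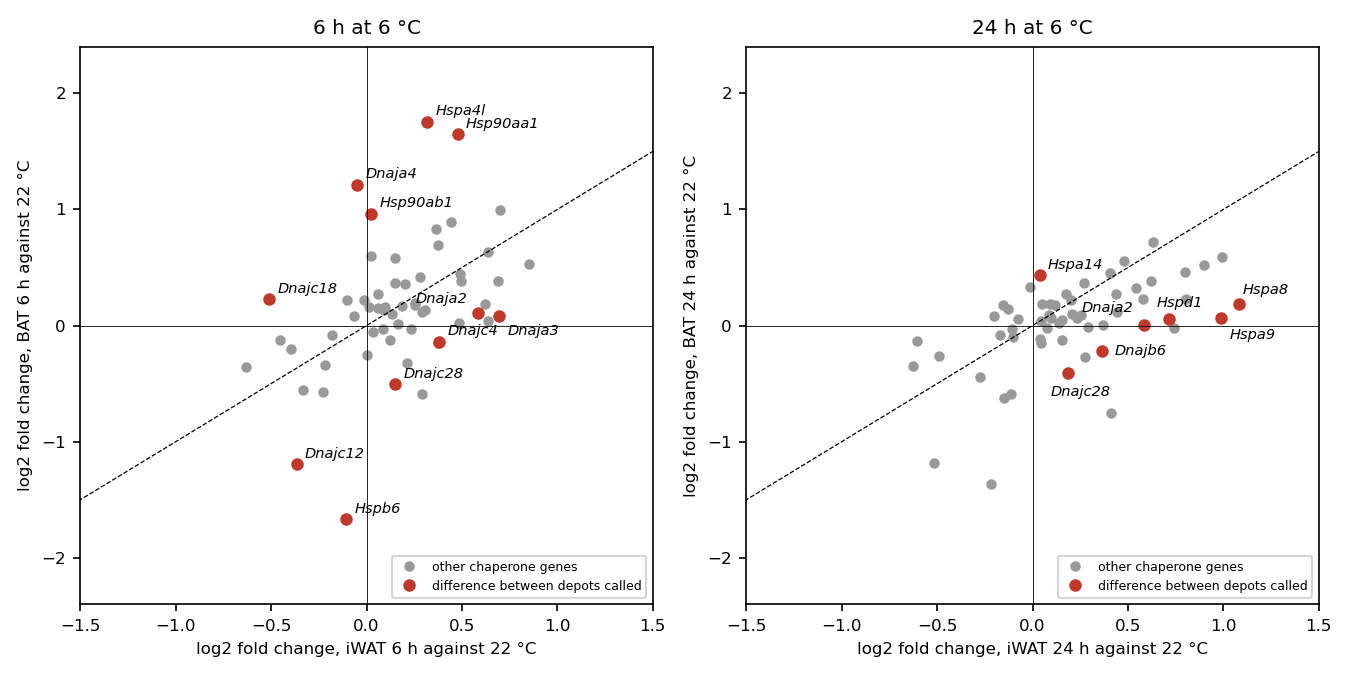
Log2 fold change after cold in BAT (vertical axis) against iWAT (horizontal axis) for 58 chaperone genes with a group mean of at least 1 CPM in both, at 6 h (left) and 24 h (right), with the diagonal dashed and genes whose difference between depots was called in red. Hspa4l, Hsp90aa1, Hsp90ab1 and Dnaja4 lie above the diagonal at 6 h, and Hspa8, Hspa9 and Hspd1 lie below it at 24 h.

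The test of the difference between the cold responses of the depots called 11 genes at 6 h and 7 at 24 h. At 6 h, the difference, BAT minus iWAT, was above 0 for 5 and below 0 for 6, where 3.38% and 6.03% of all genes were called in those directions and 9.4% in all. At 24 h the counts were 1 and 6, where 2.96% and 4.85% of all genes and 7.81% in all were called. Medians were -0.06 and -0.13, against -0.02 and -0.01 over all genes. Hspa4l rose by log2 1.76 ± 0.11 in BAT and had a log2 fold change of 0.32 ± 0.16 in iWAT, where it was not called, a difference of 1.43 ± 0.20 (adjusted p = 6.41e-05). Hsp90aa1 rose in both (1.65 ± 0.14 and 0.48 ± 0.16) and differed by 1.16 ± 0.23 (adjusted p = 0.00221). Hsp90ab1 and Dnaja4 were called in BAT and not in iWAT (0.02 ± 0.14 and -0.05 ± 0.21), with differences of 0.93 ± 0.18 and 1.25 ± 0.26. Dnajc18 was lower in iWAT (-0.51 ± 0.13) and not called in BAT (0.23 ± 0.10), a difference of 0.73 ± 0.15. Responses lower in BAT than in iWAT at 6 h were those of Hspb6 (-1.58 ± 0.50), Dnajc12 (-0.84 ± 0.27), Dnajc28 (-0.66 ± 0.18), Dnaja3 (-0.62 ± 0.17), Dnajc4 (-0.53 ± 0.17) and Dnaja2 (-0.49 ± 0.11). These lower calls depended on scaling. On FPKM only 1 member was called lower at 6 h, so at most 1 of these 6 kept its call there.

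At 24 h the response of Hspa8, Hspa9 and Hspd1 was lower in BAT. Their log2 fold changes in iWAT at 24 h were 1.08 ± 0.20, 0.99 ± 0.19 and 0.71 ± 0.17, while those in BAT were 0.19 ± 0.12, 0.06 ± 0.06 and 0.06 ± 0.07 and not called. The differences, BAT minus iWAT, were -0.89 ± 0.24 for Hspa8 (adjusted p = 0.0228), -0.93 ± 0.21 for Hspa9 (0.00714) and -0.66 ± 0.20 for Hspd1 (0.0374). Dnajb6 was called in opposite directions, higher in iWAT (0.36 ± 0.08) and lower in BAT (-0.22 ± 0.06), a difference of -0.58 ± 0.09 (adjusted p = 0.000557). Dnajc28 (-0.59 ± 0.18) and Dnaja2 (-0.58 ± 0.11) had the lower response in BAT, and Hspa14 (0.39 ± 0.12) the higher. Hspb6 lost its call at 6 h without BAT 22 °C replicates 4 or 5 or BAT 6 h replicates 3, 4 or 5 or iWAT 22 °C replicates 1, 3 or 5 or iWAT 6 h replicates 1, 2, 4 or 5 (adjusted p = 0.0553 to 0.101). Dnajc12 lost its call at 6 h without BAT 22 °C replicates 3, 4 or 5 or BAT 6 h replicates 2, 3, 4 or 5 or iWAT 22 °C replicates 1, 2 or 3 or iWAT 6 h replicates 1, 2, 3 or 5 (0.0511 to 0.0915). Dnajc4 lost its call at 6 h without BAT 22 °C replicates 3, 4 or 5 or BAT 6 h replicates 2, 3, 4 or 5 or iWAT 22 °C replicates 1, 2 or 3 or iWAT 6 h replicates 1, 2 or 5 (0.0504 to 0.0899). Hspa8 lost its call at 24 h without iWAT 22 °C replicate 1 (adjusted p = 0.0508). Hspa14 lost its call at 24 h without BAT 22 °C replicates 1, 2, 4 or 5 or BAT 24 h replicates 1, 4 or 5 or iWAT 22 °C replicates 1 or 5 or iWAT 24 h replicates 1, 2 or 3 (0.0524 to 0.0922). Hspd1 lost its call at 24 h without BAT 22 °C replicates 2, 3 or 4 or BAT 24 h replicates 3, 4 or 5 or iWAT 22 °C replicates 1, 2 or 5 or iWAT 24 h replicates 1, 2 or 5 (0.0509 to 0.0827). Dnajc28 lost its call at 24 h without BAT 22 °C replicates 1, 2, 3 or 5 or BAT 24 h replicates 1, 3 or 4 or iWAT 22 °C replicates 1, 2 or 5 or iWAT 24 h replicates 1 or 3 (0.0517 to 0.09). The count at 6 h was 18 without iWAT 22 °C replicate 4. At 24 h it was 12 without that library, 3 without iWAT 22 °C replicate 1, and 4 without iWAT 22 °C replicate 5, iWAT 24 h replicate 1, BAT 22 °C replicate 2 or BAT 24 h replicate 4. On FPKM, where the all-gene median was 0.13 at 6 h and 0.10 at 24 h, the splits of higher to lower were 10 to 1 and 3 to 5 and the medians over members turned to 0.12 and 0.03, and with upper-quartile factors 5 to 3 and 1 to 5.

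At 22 °C, most of these chaperone genes were higher in BAT than in iWAT by TMM-scaled counts, though on FPKM the calls were split almost evenly. Of 64 tested genes, 42 were called higher in BAT and 9 lower, where 32.4% of all genes were called higher, 34.5% lower and 66.9% in all, with a median of 0.51 over members and -0.04 over all genes. All 8 mitochondrial members were higher (median 1.39), led by Dnaja3, which measured 66.2 to 108 CPM in iWAT and 444 to 491 CPM in BAT (log2 2.48 ± 0.13, adjusted p = 4.99e-15), followed by Hspa9 (1.84 ± 0.15), Dnajc11 (1.76 ± 0.16) and Hspd1 (1.60 ± 0.14). Of the heat-inducible list, 14 of 15 were higher (median 1.31), among them Hspa1a (3.08 ± 0.75), Hspa1b (3.03 ± 0.67), Hsph1 (1.86 ± 0.33), Hspb1 (1.79 ± 0.23), Hspa4l (1.76 ± 0.14), Hspa8 (1.44 ± 0.18) and Dnajb1 (1.07 ± 0.26), and Hspb8 was the exception (-0.13 ± 0.13, adjusted p = 0.398). The groups overlapped for Hspa1a, Hspa1b and Hsph1, and BAT replicate 4 was the highest BAT library for each. Summed, Hspa1a and Hspa1b measured 2.62 to 127 CPM in BAT and 1.69 to 10.5 CPM in iWAT. Dnajc22, a membrane protein with a J domain, measured 3.89 to 7.12 CPM in BAT and 0 to 0.122 CPM in iWAT, 6 reads or fewer a library. The 9 genes lower in BAT were Hspa12a, at 73.3 to 136 CPM in iWAT and 18.5 to 25.1 CPM in BAT without overlap (log2 -2.31 ± 0.18, adjusted p = 4.31e-12), and Dnajb13 (-1.62 ± 0.32), Hspa2 (-0.97 ± 0.23), Dnajc10, a disulfide reductase of the endoplasmic reticulum (-0.64 ± 0.07), Dnajc18 (-0.55 ± 0.11), Dnajc9 (-0.36 ± 0.10), Dnajc1 (-0.27 ± 0.08), Hspa13 (-0.26 ± 0.09) and the splicing-associated Dnajc8 (-0.36 ± 0.06). Of the members of the endoplasmic reticulum, 2 were higher and 3 lower, with a median of 0.02 that turned to -0.17 with upper-quartile factors and -0.45 on FPKM (pseudocount 1). This comparison depended on scaling. On FPKM in limma, with all genes shifted to a median of -0.34 (pseudocount 1) or -0.58 (0.1), the split was 24 to 23 or 25 to 24, and upper-quartile factors, with a median of -0.23, gave 35 to 15. The median over members turned to -0.07 on FPKM (pseudocount 1). On FPKM 6 of the 8 mitochondrial members and 10 of the 15 heat-inducible genes were called higher and 2 heat-inducible genes were lower, the calls of Dnajb4 and Hsf1 turned to lower, and Dnaja1 was not called. Dnajb4 lost its call without BAT 22 °C replicates 3 or 4 (adjusted p = 0.057 to 0.0685). Hsf1 lost its call without BAT 22 °C replicates 1, 3 or 4 or iWAT 22 °C replicates 1, 2, 3 or 5 (0.0575 to 0.108).

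Hspa1a, Hspa1b, Hsph1 and Dnajb1, of the heat-inducible list, differed widely between the BAT libraries at 22 °C, unlike Hspa4l of the same list, whose values there are given above. In BAT at 22 °C, Hspa1a measured 2.89, 4.88, 15, 54.0 and 1.05 CPM and Hspa1b 4.93, 11.7, 18.6, 73.2 and 1.56 CPM in the same 5 libraries. Replicate 4 was the highest and replicate 5 the lowest for both. The 2 genes are near-identical copies whose reads counting can split, and their sum, 2.62 to 127 CPM at 22 °C, 7.84 to 65.9 CPM at 6 h and 5.41 to 29.9 CPM at 24 h, had its widest range at 22 °C. Of the 70 genes, 7 had the 5 BAT libraries at 22 °C in the order replicate 4 highest, then 3, 2, 1 and 5. They were Bag3, Dnaja1, Dnajb1, Hsp90aa1, Hspa1a, Hspa1b and Hsph1. These genes were picked by that order, so their shared order is no separate result. One of them, Dnajb1, the main heat-inducible class B protein, measured 44.1, 56.3, 66.7, 101 and 28.9 CPM. Of the 15 heat-inducible genes, 11 were highest in BAT replicate 4 at 22 °C, where 17 of all 70 members were. In iWAT replicate 4 at 22 °C the counts were 13 of the 15 and 36 of the 70, and 13 of the 70 were highest in replicate 4 of both tissues. In iWAT, Hsph1 measured 16.7, 23.4, 44.0, 71.7 and 20.8 CPM at 22 °C, with replicate 4 above every 6 h library, which measured 27.2, 53.2, 31.3, 54.3 and 64.5 CPM. In the cold, replicate 1 was highest for 10 of the 15 in BAT at 6 h (24 of the 70), for 14 of 15 in BAT at 24 h (27 of the 70) and for 11 of 15 in iWAT at 24 h (23 of the 70), and replicate 5 for 8 of 15 in iWAT at 6 h (18 of the 70). The 15 genes are part of the 70, and how many of all tested genes were highest in each library was not counted. What the libraries that stand high share beyond their number was not tested.

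**Figure D4:**
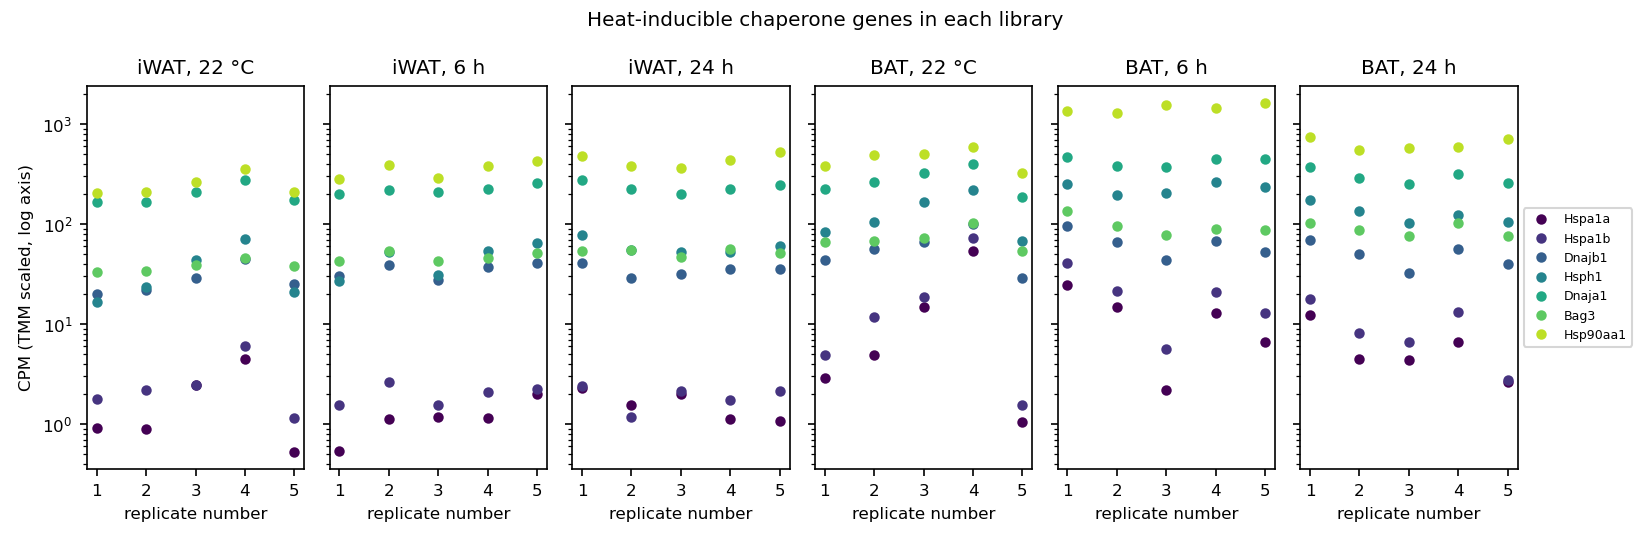
CPM on a log axis of the 7 genes Hspa1a, Hspa1b, Dnajb1, Hsph1, Dnaja1, Bag3 and Hsp90aa1 in the libraries of each group, by replicate number. The 7 genes were picked for their shared order in BAT at 22 °C, so replicate 4 is highest there by choice. In iWAT at 22 °C replicate 4 also holds the highest point of each gene.

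Hspb6 and Hspb7, small heat shock proteins abundant in muscle, were highest at 22 °C in the libraries with the most skeletal muscle markers, in BAT and in iWAT. Hspb6, known as HSP20, measured 25.6, 10.1, 25.5, 61.8 and 66.9 CPM in BAT at 22 °C, 12.4, 18, 10.8, 9.20 and 9.90 CPM at 6 h and 21.7, 15.1, 24.7, 20.3 and 46.0 CPM at 24 h. Control replicates 4 and 5 were the highest and control replicate 2 lay within the 6 h range (log2 -1.67 ± 0.41, adjusted p = 0.00748). Hspb7 measured 5.78, 0.407, 7.15, 17.6 and 17.6 CPM at 22 °C, 0.641, 8.19, 1.03, 0.0804 and 1.04 CPM at 6 h and 0.123, 0.139, 15.3, 4.4 and 8.44 CPM at 24 h. Its groups overlapped and it was not called (log2 -2.14 ± 1.09, adjusted p = 0.171). The summed skeletal muscle markers of the same libraries were 2205, 269.5, 2109, 5735 and 8987 CPM at 22 °C, 10.01, 1715, 414, 31.7 and 426 CPM at 6 h and 4.66, 2.36, 1499, 888 and 4713 CPM at 24 h. At 22 °C replicates 4 and 5 were highest for both genes and the markers, at 6 h replicate 2 was, and at 24 h replicate 5 was highest for Hspb6 and the markers and replicate 3 for Hspb7. Below the highest libraries the order of Hspb6 differed from that of the markers. At 24 h replicate 1, with 4.66 CPM of markers, had Hspb6 at 21.7 CPM, above the 20.3 CPM of replicate 4, with 888 CPM of markers. Of the 10 markers, Tnnc2 had at most 1 count in any library, and Ckm, Myh4 and Pvalb were at 0 in 5 of 5 iWAT libraries at 6 h. In iWAT, replicate 2 at 22 °C, the library with high muscle markers, had the highest Hspb6 (7.05, 21.4, 8.91, 10.02 and 9.26 CPM over the 5 libraries) and Hspb7 (0.244, 3.28, 0.183, 0.340 and 0.571 CPM). With the muscle list as a covariate, chosen after seeing the data, Hspb6 was lower in BAT at 6 h (log2 -1.12, adjusted p = 0.045) and Hspb7 had a log2 fold change of 0.02. In that fit 17 members were called in BAT at 6 h, 11 at 24 h and 22 between the times; Dnajb12, Dnajb3, Dnajc15 and Hsp90ab1 lost their calls at 24 h (adjusted p = 0.187, 0.0522, 0.189 and 0.0967). Calls lost at 6 h were those of Hspb1 (adjusted p = 0.184), Hsph1 (0.0911), Hspa9 (0.0754), Dnajc9 (0.0702) and Dnaja1 (0.0688). Hspa4l (1.71), Hsp90aa1 (1.63) and Hspa8 (0.86) were called in it. Dnajb5, a class B protein, was also highest in BAT replicates 4 and 5 and in iWAT replicate 2, at 10.6, 7.32, 10.4, 13.9 and 22.6 CPM in BAT and 8.29, 15.5, 8.97, 8.24 and 8.75 CPM in iWAT at 22 °C. It had log2 fold changes of -0.62 to -0.15 in the 4 cold comparisons and no call.

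**Figure D5:**
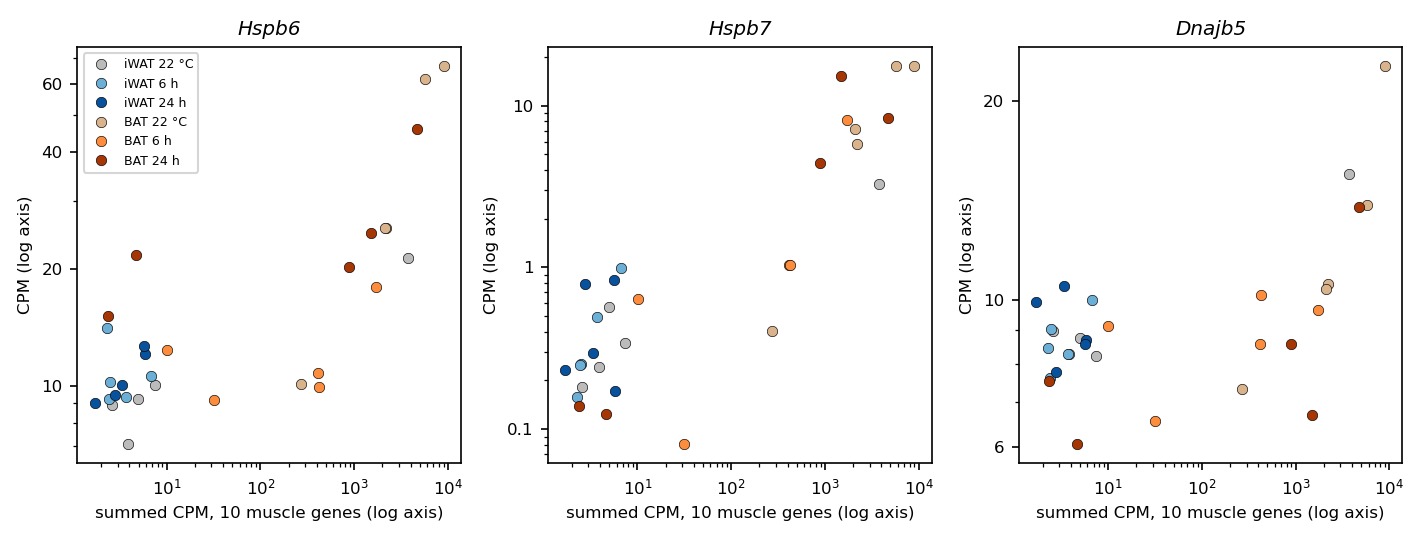
CPM of Hspb6, Hspb7 and Dnajb5 (vertical axis) against the summed CPM of 10 skeletal muscle genes (horizontal axis), both on log axes, in the 30 libraries coloured by group. In BAT the 2 libraries with the most muscle RNA, replicates 4 and 5 at 22 °C, have the highest Hspb6 and Hspb7.

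Partner genes outside the family rule were counted for comparison. Of all tested genes, 12.5% were called higher and 10.2% lower in BAT at 6 h, 12.8% and 10.4% in BAT at 24 h, 6.6% and 6.45% from 6 h to 24 h in BAT, 12.9% and 10.1% in iWAT at 6 h, and 12.8% and 10.1% in iWAT at 24 h. Of 25 co-chaperones of HSP90 and HSP70, 14 were called higher and 0 lower in BAT at 6 h (median 0.30), 5 higher and 1 lower at 24 h, and 4 lower and 0 higher from 6 h to 24 h. Ahsa1, which stimulates the HSP90 ATPase, rose at 6 h (log2 0.82 ± 0.13, adjusted p = 0.000198) and fell again to 24 h (log2 -0.52 ± 0.12, adjusted p = 0.0118), and Sugt1 rose at both times (log2 0.71 ± 0.09 and 0.61 ± 0.09). Fkbp5, a glucocorticoid-induced immunophilin, rose at both times in BAT (0.83 ± 0.25 and 1.58 ± 0.25) and in iWAT (0.75 ± 0.19 and 0.84 ± 0.19). In iWAT 8 co-chaperones were higher and 1 lower at 6 h, and 10 higher and 0 lower at 24 h, among them Bag2 (0.74 ± 0.17). Of the 14 genes of the cytosolic chaperonin TRiC and its partner prefoldin, 8 were higher in BAT at 6 h, 5 at 24 h, 8 in iWAT at each time, and none was lower in these comparisons, with Cct7 (0.55 ± 0.08) and Cct3 (0.51 ± 0.08) in front in BAT at 6 h. From 6 h to 24 h 6 of these 14 were called lower in BAT, among them Cct7 (-0.38 ± 0.08) and Tcp1 (-0.31 ± 0.05). Of 14 mitochondrial chaperones and proteases, 10 were higher in iWAT at 6 h and 7 at 24 h, with none lower, led by Grpel1, the exchange factor of Hspa9 (0.91 ± 0.16 and 1.00 ± 0.16), and Timm44 of the import motor (0.66 ± 0.14 and 0.74 ± 0.14). In BAT the same list gave 2 higher and 2 lower at 6 h, near the shares of all genes, and 4 higher and 3 lower at 24 h, and 3 genes at 6 h and 5 at 24 h had a lower response in BAT than in iWAT, where 6.03% and 4.85% of all genes did, among them Grpel1 (-0.85 ± 0.18 and -0.69 ± 0.18) and Timm44 (-0.92 ± 0.16 and -0.65 ± 0.16). Of 9 tested genes of other heat shock factors and targets, 0 were called in iWAT at 6 h, 1 at 24 h, and 1 in BAT at each time, near the share of all genes, P4ha1 at 6 h (1.11 ± 0.22). Of the 5 chaperones of the endoplasmic reticulum left out by the rule, 2 were higher in iWAT and 3 in BAT at each time, among them Dnajb9 in iWAT (0.89 ± 0.18 and 1.08 ± 0.18) and Hspa5 in BAT (0.34 ± 0.05 and 0.50 ± 0.05). Fkbp5 lost its call at 6 h without BAT 22 °C replicates 1, 2 or 3 or BAT 6 h replicates 2 or 5 (adjusted p = 0.0506 to 0.073).

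Of the regulators, Hsf1 and Hsf2 were called in none of the cold comparisons. Hsf1 measured 19.2, 15.8, 18.2, 19.2 and 14.9 CPM in BAT at 22 °C and 23.4, 15.3, 19.7, 22.5 and 18.1 CPM at 6 h, and Hsf2 14.7, 12.6, 17.8, 14.9 and 17.2 and 23.6, 19.9, 15.5, 16.6 and 18.9 CPM. Groups overlapped for both genes, and over the 4 comparisons their log2 fold changes ran from -0.13 to 0.16 for Hsf1 and from 0.06 to 0.28 for Hsf2. Bag3, which links HSP70 to Hspb8 and to autophagy, rose in iWAT as given above and was not called in BAT, where it measured 65.6, 67.5, 72.2, 102 and 54.1 CPM at 22 °C and 136, 96.5, 78.3, 90.4 and 86.5 CPM at 6 h (log2 0.42 ± 0.16, adjusted p = 0.0768). Its response did not differ between depots by call, BAT minus iWAT, at 6 h (log2 0.12 ± 0.20, adjusted p = 0.743) or at 24 h (-0.16 ± 0.20, adjusted p = 0.674). Over the 4 cold comparisons, 33 of the 70 genes were called in none, untested genes included. Besides those named above they were Dnajb2, Dnajb13, Dnajc1, Dnajc7, Dnajc8, Dnajc10, Dnajc13, Dnajc14, Dnajc16, Dnajc17, Dnajc24, Dnajc30, Hspa1l and Hspa2, with log2 fold changes from -0.56 to 0.37 in the comparisons that tested them.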

How the data were processed

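Bulk polyA RNA was sequenced from 30 libraries in 6 groups of 5. The submitters' processing notes name HISAT2, HTSeq and the build GRCm39. Deposited counts were unscaled whole reads per gene, and the deposited FPKM were the authors' values per length and library. Whether strand was kept is not given in the sources used here, so overlapping genes on opposite strands could not be told apart. Library totals ran from 25345889 to 40986043 counts, and chi-square per degree of freedom between 60 pairs of libraries of a group was 14.0 to 181, above counting noise.

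Counts were tested in R 4.3.3 with edgeR 4.0.16 (filterByExpr, minimum count 10, TMM factors, quasi-likelihood F test, Benjamini-Hochberg adjustment over all genes tested). Comparisons within iWAT or BAT used the 15 libraries of that depot, and those across depots used all 30. The procedure was tested on simulated data. Members and lists were chosen with earlier results of these data known. The values of 1 member are not reported here. Named were 23 fixed members, the 6 largest rises and falls per comparison at 5 CPM or more, and up to 3 called genes per partner list; other members were named after their values were seen. Also tried were upper-quartile and RLE factors, DESeq2 1.42.0, a filter of 1 CPM in 5 libraries or none, limma 3.58.1 on log2 FPKM with pseudocounts of 1 and 0.1, other sets of libraries, the replicate number as a block, and each library left out. Promoter windows came from RefSeq (GRCm38.p6).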

Additional observations from a re-analysis of the deposited data

Results flagged for a closer look

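In 144 sets of 5 libraries, Dixon's ratio of the end gap to the whole spread was compared with its 95% value. Chance exceeds it in about 1 of 20 sets, and 7 sets exceeded it. In BAT at 6 h, replicate 1 was low for Hspa4 at 257 CPM, against 303 to 322 in the other 4, low for Hspa4l at 191 CPM, against 231 to 245 in the other 4, and high for Hspb8 at 165 CPM, against 121 to 132 in the other 4. In iWAT at 22 °C, replicate 4 was high for Hspe1 at 166 CPM, against 62.9 to 79.0 in the other 4, and replicate 2 for Dnajb5 at 15.5 CPM, against 8.24 to 8.97 in the other 4, and for the summed skeletal muscle markers at 3748 CPM, against 2.58 to 7.42 in the other 4. In BAT at 24 h, replicate 4 was low for Hsf2 at 15 CPM, against 16.8 to 17.3 in the other 4.

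Called differences of the cold response, BAT minus iWAT, were the other results singled out. At 6 h they were, on the log2 scale, 1.43 for Hspa4l, 1.25 for Dnaja4, 1.16 for Hsp90aa1, 0.93 for Hsp90ab1, 0.73 for Dnajc18, -0.49 for Dnaja2, -0.53 for Dnajc4, -0.62 for Dnaja3, -0.66 for Dnajc28, -0.84 for Dnajc12 and -1.58 for Hspb6. At 24 h they were 0.39 for Hspa14, -0.58 for Dnaja2, -0.58 for Dnajb6, -0.59 for Dnajc28, -0.66 for Hspd1, -0.89 for Hspa8 and -0.93 for Hspa9.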

How the results depend on the processing

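Counts of called members stayed within 1.5 times the reported ones under DESeq2, other factors, other filters, FPKM and 1 fit of all libraries. The exceptions were in iWAT at 6 h, where 17 became 11 with only the 2 groups compared and 7 with the skeletal muscle covariate. In iWAT that covariate is highest by far in 22 °C replicate 2, without which the count was also 7, and the cause was not tested. With each library left out in turn, counts ran from 6 to 24 (iWAT 6 h), 15 to 26 (iWAT 24 h), 0 to 0 (iWAT 24 h against 6 h), 18 to 24 (BAT 6 h), 11 to 16 (BAT 24 h), 12 to 21 (BAT 24 h against 6 h), 50 to 53 (BAT against iWAT), and 8 to 18 and 3 to 12 for the differences of the response at 6 h and 24 h. Of the single genes called, the direction reversed in BAT against iWAT on FPKM for Dnaja1 (-0.12 and -0.11 with pseudocounts of 0.1 and 1), Dnajb4 (-0.30 and -0.27) and Hsf1 (-0.32 and -0.23); the cause was not tested. Medians over members or lists that turned are given above. So are the splits of higher to lower calls. On FPKM they moved toward lower calls for iWAT at 6 h and 24 h and for BAT against iWAT. They moved toward higher calls for BAT 24 h against 6 h and for the differences of the response at 6 h and 24 h. For all these alternative fits the share of all genes called is not given, so changes shared with other genes cannot be told apart.

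Whether equal replicate numbers mark a shared mouse is not given in the sources used here. Correlations of same-numbered libraries between groups ran from -0.56 to 0.54 and in no pair of groups were all 5 over 0.1, so the numbers were not treated as pairs. Between BAT at 22 °C and 24 h, 4 of 5 were over 0.1 and 3 libraries correlated best with their own number. Between iWAT and BAT at 24 h, all 5 libraries correlated best with their own number (0.08 to 0.31), a hint from the data and not from the design. With the number as a replicate block, counts in the order above were 17, 22, 0, 24, 18, 22, 52, 15 and 9.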
